A study of Mus musculus with 9 samples.

Results

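The genes described here encode heat shock proteins and their partners in the cytosol and mitochondria, the transcription factors of the heat shock response, and the folding enzymes, sensors and factors of the unfolded protein response. They were chosen by gene name, though with earlier results of these data known. All 38 were found among the 13646 genes present in both deposited gene tables. They comprised 17 cytosolic chaperones and cochaperones, 3 mitochondrial chaperones, 3 genes of heat shock factors and their binding protein, and 15 genes of the endoplasmic reticulum (ER). RNA-seq was performed on heart tissue of male C57BL/6 mice, labelled as 10 weeks old, with 3 hearts in each of 3 groups. TAC+PUE mice underwent transverse aortic constriction (TAC), a banding of the aorta that makes the heart pump against raised pressure. They also received puerarin (PUE), a plant isoflavone, at a daily 100 mg/kg by intraperitoneal injection, starting 3 days ahead of surgery. TAC mice had the constriction and saline injections, and sham mice had the operation with no constriction and saline injections. All hearts were taken 21 days after surgery. No group received puerarin without constriction, each library was 1 heart, and the sources used here do not give the part of the heart used.

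Heat shock proteins bind unfolded proteins and help them to fold, or hold them in a soluble state until they can be refolded or degraded. In the cytosol, heat shock factor 1 drives their transcription through heat shock elements in their promoters. In the ER, the sensors Ern1 (IRE1), Atf6 and PERK respond to unfolded proteins and act through Xbp1, cleaved Atf6 and Atf4 to raise chaperones, degradation factors and, under lasting stress, Ddit3 (CHOP). In the heart, small heat shock proteins are abundant in cardiomyocytes, where several of them associate with the sarcomere and the cytoskeleton.

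Expression is given as FPKM (fragments per kilobase of feature, scaled to the mapped fragments of the library), which corrects for length, so levels can be set side by side between genes. Tests were made with limma on log2(FPKM + 1), which understates changes of genes at low levels, and a gene passed at a Benjamini-Hochberg adjusted p under 0.05. Fold changes are given as log2 fold changes ± standard error. The 3 comparisons share libraries, so each is given with its own values. Among the 38 genes the mean level ran from 1.40 FPKM for Hsf2 to 590 FPKM for Hspb7 in TAC+PUE hearts, from 0.613 to 553 FPKM for the same genes in TAC hearts, and from 1.71 to 375 FPKM in sham hearts. The median coefficient of variation of the 38 genes was 13.1% among TAC+PUE hearts, 16.3% among TAC hearts and 5.75% among sham hearts.

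**Figure D1:**
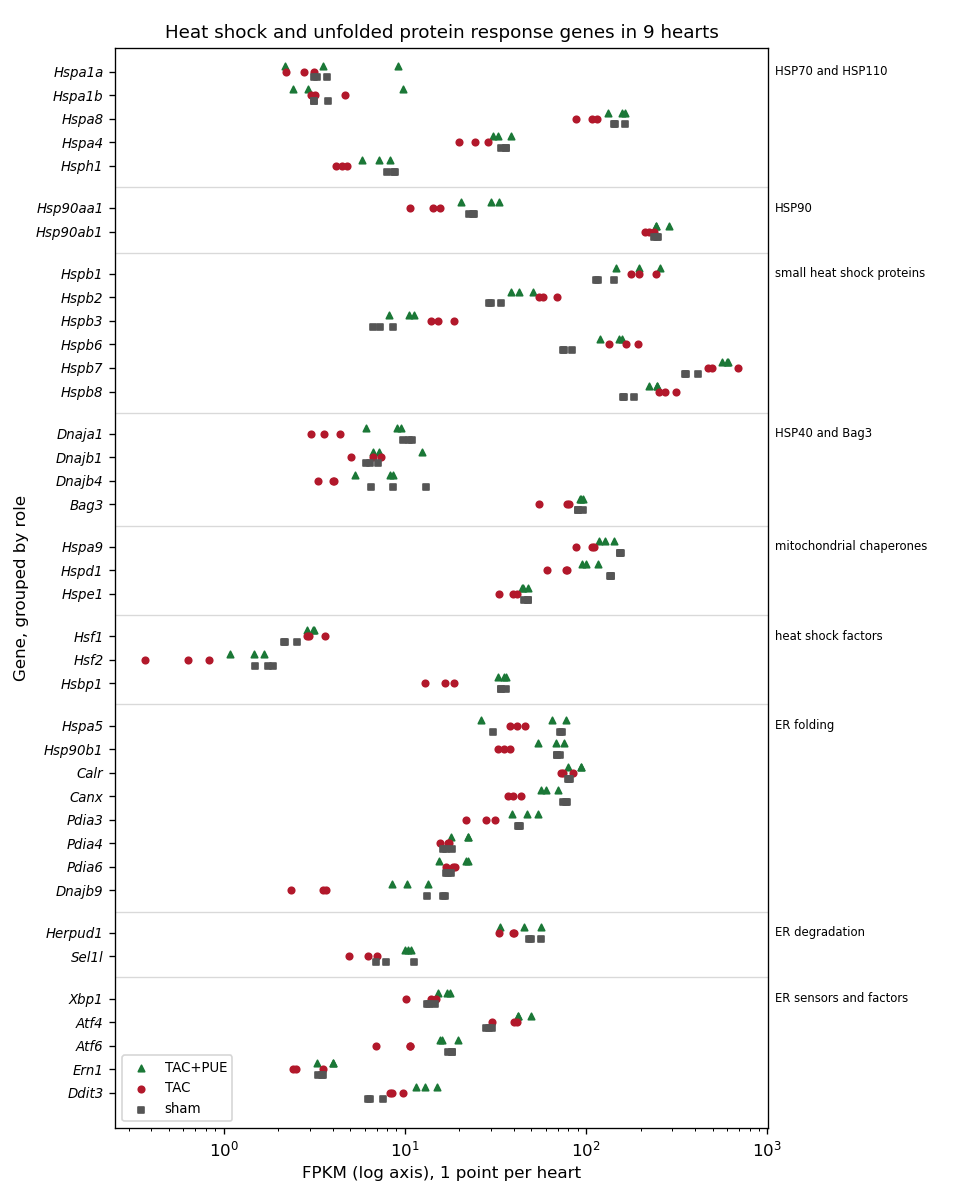
FPKM of the 38 genes in each of the 9 hearts on a log axis, 1 point per heart, with genes grouped by role. The small heat shock proteins lie further right in TAC hearts than in sham hearts, while Dnajb9, at 2.37 to 3.69 FPKM in TAC hearts, lies furthest left of its sham values.

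The libraries differed in composition in ways that touch every FPKM value. The mRNAs encoded by mitochondrial DNA took 14.2 to 26.0% of summed FPKM in TAC+PUE hearts, 2.81 to 7.04% in TAC hearts and 31.6 to 42.9% in sham hearts. The rRNA-like transcripts Gm26917 and Gm42418 took 1.11 to 2.52% in TAC+PUE hearts, 4.81 to 7.50% in TAC hearts and 0.520 to 1.11% in sham hearts. All 6 cardiomyocyte markers were present in every heart, and their summed level was 7503 to 7778 FPKM in TAC+PUE hearts, 10053 to 11177 FPKM in TAC hearts and 6659 to 7444 FPKM in sham hearts. The 5 red blood cell markers summed to 1527 to 6068 FPKM in TAC+PUE hearts, 5276 to 7690 FPKM in TAC hearts and 1056 to 1283 FPKM in sham hearts. The fibroblast markers did not move as 1 group: in TAC against sham hearts 3 of 6 were higher and 1 lower, and in TAC+PUE against TAC hearts 2 were higher and 2 lower. They summed to 242 to 340 FPKM in TAC+PUE hearts, 312 to 373 FPKM in TAC hearts and 143 to 157 FPKM in sham hearts, of which Col1a1 and Col3a1 made the larger part in TAC hearts, while Dcn was at 78.8 to 86.4 FPKM in TAC+PUE hearts, 32.9 to 51.1 FPKM in TAC hearts and 60.1 to 63.0 FPKM in sham hearts. Of the 6 cardiomyocyte markers, 4 were higher in TAC against sham hearts and 1, Ryr2, was lower. The atrial light chain Myl7 exceeded 100 FPKM in TAC+PUE replicates 2 and 3 and TAC replicate 3. It measured 27.4 FPKM in TAC+PUE replicate 1, 79.8 FPKM in TAC replicate 1 and 1.60 FPKM in TAC replicate 2. In sham hearts Myl7 measured 1.07, 1.06 and 0.858 FPKM, so a limit of 100 FPKM does not even out its level between groups. The part of these values in the results below was not tested, and in whole tissue fewer cells of a type and less RNA per cell cannot be told apart.

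The first comparison asked how pressure overload changed these genes. Of the 38 genes, 8 were higher in TAC hearts than in sham hearts, 17 were lower, and 13 did not pass the test. Over all 11687 genes tested, 25.3% were higher and 37.7% were lower. The members' median log2 fold change was -0.34, beside -0.12 for all genes tested. The 8 higher genes were the 6 small heat shock proteins, Hsf1 and Ddit3. The lower genes came from every other role, with Dnajb9, Dnaja1, Hsbp1 and Dnajb4 changed most. The split depended on scaling: with FPKM rescaled to TPM, 14 were higher and 11 lower, with median-ratio scaling 9 and 16, and with TPM computed without rRNA-like and mitochondrial transcripts 6 and 22. These scalings put the median of all genes at 0.22, 0.01 and -0.22. Hspa8, Hspa4, Hspa9, Pdia3 and Herpud1 lost their lower call with TPM, and the 8 higher genes fell to 5 without sham replicate 1, sham replicate 3 or TAC replicate 2, where Hspb7, Hsf1 and Ddit3 were lost. With TPM, 6 genes gained a higher call, Hspa1b, Dnajb1, Calr, Pdia4, Pdia6 and Atf4, and 10 turned sign, of which Bag3 alone had passed with FPKM. With TPM without rRNA-like and mitochondrial transcripts, 5 genes gained a lower call, Hspa1a, Hsp90ab1, Hspe1, Sel1l and Ern1.

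The second comparison asked how puerarin changed the overloaded hearts. In TAC+PUE hearts, 16 of the 38 genes were higher than in TAC hearts, 2 were lower and 20 did not pass. Over all 11788 genes tested, 32.9% were higher and 5.45% were lower. The members' median log2 fold change was 0.37, beside 0.24 for all genes. The higher genes again came from every role but the small heat shock proteins, and the lower genes were the small heat shock proteins Hspb2 and Hspb3. With median-ratio scaling 10 were higher and 3 lower, and with TPM 11 and 3. The median of all genes was -0.04 and 0.04 under these scalings. Hspa8, Hspa4, Hsph1, Hspd1 and Ddit3 lost their higher call with both of them and Canx with median-ratio scaling, while Hsp90aa1, Dnaja1, Dnajb4, Hsbp1, Hsp90b1, Pdia3, Dnajb9, Sel1l and Atf6 passed under every alternative in which they were tested (the filter at 10 FPKM left some of them out). Hspb8 gained a lower call with both scalings.

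**Figure D2:**
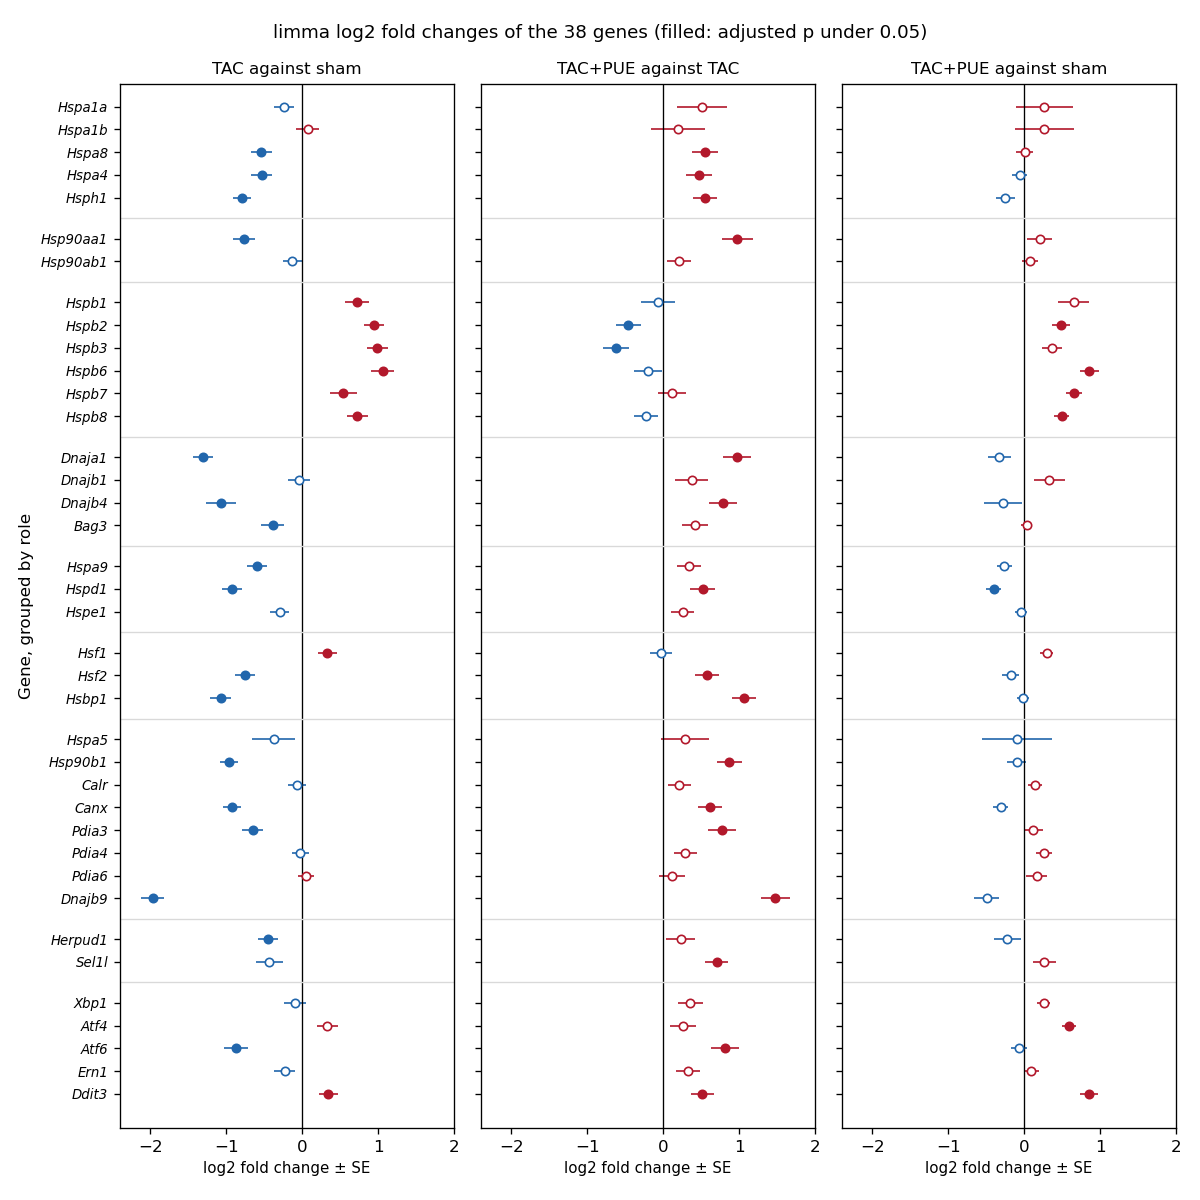
log2 fold changes on the log2(FPKM + 1) scale with standard errors for the 38 genes in TAC against sham, TAC+PUE against TAC and TAC+PUE against sham, with filled points at an adjusted p under 0.05 (limma). All 6 small heat shock proteins are filled to the right of 0 in TAC against sham, where Dnajb9 lies furthest left at -1.97.

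The small heat shock proteins are ATP-independent chaperones that hold unfolding proteins in solution. All 6 were higher in TAC hearts than in sham hearts, by 0.54 to 1.06. Hspb1 (Hsp27), which binds actin filaments, measured 197, 256 and 146 FPKM in TAC+PUE hearts, 196, 244 and 178 FPKM in TAC hearts and 114, 142 and 116 FPKM in sham hearts. Its TAC and sham values did not overlap, with a fold change of 0.72 ± 0.16 (adjusted p = 0.00243). Hspb6 (Hsp20), a target of cAMP-dependent kinase in cardiomyocytes, measured 157, 152 and 119.6 FPKM in TAC+PUE hearts, 194, 166 and 135 FPKM in TAC hearts and 75.6, 83.8 and 74.5 FPKM in sham hearts. It had the largest fold change of the 6 in TAC against sham hearts, at 1.06 ± 0.15 (adjusted p = 0.00023), with every TAC heart above every sham heart. Hspb7 (cvHsp), a cardiovascular member that binds filamin C, measured 600.2, 605 and 565 FPKM in TAC+PUE hearts, 497, 693 and 469 FPKM in TAC hearts and 358, 414 and 354 FPKM in sham hearts. It had the highest level of all 38 genes in each group and differed by 0.54 ± 0.17 (adjusted p = 0.0199) in TAC against sham hearts. Hspb8 (Hsp22), which works with Bag3 in selective autophagy, measured 247, 245 and 223 FPKM in TAC+PUE hearts, 274, 315 and 252 FPKM in TAC hearts and 161, 183 and 162 FPKM in sham hearts. It differed by 0.73 ± 0.14 (adjusted p = 0.00115), with every TAC heart above every sham heart.

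Hspb2, which binds the kinase DMPK, and Hspb3, its muscle partner, were the members of this family that also passed the test between TAC+PUE and TAC hearts. Hspb2 measured 38.3, 50.9 and 42.5 FPKM in TAC+PUE hearts, 55.03, 68.9 and 57.9 FPKM in TAC hearts and 29.3, 33.8 and 29.8 FPKM in sham hearts. The 3 groups did not overlap, with a fold change of 0.94 ± 0.13 (adjusted p = 0.000187) in TAC against sham hearts and -0.46 ± 0.17 (adjusted p = 0.0475) in TAC+PUE against TAC hearts. Hspb3 measured 10.6, 11.2 and 8.20 FPKM in TAC+PUE hearts, 15.2, 18.8 and 13.9 FPKM in TAC hearts and 7.28, 8.56 and 6.69 FPKM in sham hearts. The TAC hearts lay above both other groups, with fold changes of 0.99 ± 0.14 (adjusted p = 0.000247) in TAC against sham hearts and -0.62 ± 0.17 (adjusted p = 0.016) in TAC+PUE against TAC hearts. The other 4 of the 6 genes differed by -0.23 to 0.11 between TAC+PUE and TAC hearts and did not pass. The 6 higher calls in TAC hearts were unchanged with TPM, median-ratio scaling, or TPM without rRNA-like and mitochondrial transcripts, and Hspb7 lost its call without sham replicate 1, sham replicate 3 or TAC replicate 2. The 2 lower calls in TAC+PUE hearts fell to 0 without TAC+PUE replicate 3 or TAC replicate 2 (limma, 1 at an unadjusted p under 0.05 in each) and to 1 without TAC+PUE replicate 1, TAC replicate 1 or TAC replicate 3.

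The cytosolic HSP70 and HSP110 genes behaved in another way. Hspa8 (Hsc70), the constitutive HSP70, measured 158, 165 and 133 FPKM in TAC+PUE hearts, 87.5, 115 and 108 FPKM in TAC hearts and 143, 163 and 145 FPKM in sham hearts. TAC hearts lay below both other groups, with -0.54 ± 0.14 (adjusted p = 0.0071) against sham hearts and 0.55 ± 0.17 (adjusted p = 0.0267) in TAC+PUE against TAC hearts. Hspa4, an HSP110 family nucleotide exchange factor, measured 38.6, 32.8 and 30.5 FPKM in TAC+PUE hearts, 19.9, 28.7 and 24.3 FPKM in TAC hearts and 35.96, 33.8 and 36.1 FPKM in sham hearts. Again the TAC hearts were the lowest, at -0.54 ± 0.14 (adjusted p = 0.00717) against sham hearts, with 0.48 ± 0.17 (adjusted p = 0.0478) in TAC+PUE against TAC hearts. Hsph1 (Hsp105), which ejects nucleotide from HSP70, measured 7.19, 8.28 and 5.81 FPKM in TAC+PUE hearts, 4.51, 4.81 and 4.19 FPKM in TAC hearts and 8.70, 8.03 and 8.85 FPKM in sham hearts. It differed by -0.79 ± 0.12 (adjusted p = 0.00026) in TAC against sham hearts and by 0.55 ± 0.16 (adjusted p = 0.0194) in TAC+PUE against TAC hearts, where the groups did not overlap. In the comparison of TAC+PUE with TAC hearts, the calls of these 3 genes were lost without TAC+PUE replicate 1 or TAC+PUE replicate 2, that of Hspa8 also without TAC replicate 1, and that of Hspa4 also without TAC+PUE replicate 3, TAC replicate 1 or TAC replicate 3. The call of Hspa4 was lost as well with a pseudocount of 0.1, the filter at 10 FPKM, no filter and the replicate block.

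Of the cytosolic HSP90 genes, which fold kinases and nuclear receptors, the inducible Hsp90aa1 passed the test and Hsp90ab1 did not. It measured 32.99, 29.9 and 20.4 FPKM in TAC+PUE hearts, 10.7, 15.6 and 14.3 FPKM in TAC hearts and 23.98, 22.6 and 23.9 FPKM in sham hearts. TAC hearts were below the rest, at -0.77 ± 0.14 (adjusted p = 0.00103) against sham hearts and 0.97 ± 0.20 (adjusted p = 0.00564) in TAC+PUE against TAC hearts. The constitutive Hsp90ab1 was more abundant and measured 243, 288 and 244 FPKM in TAC+PUE hearts, 211, 223 and 236 FPKM in TAC hearts and 246, 251 and 236 FPKM in sham hearts. Its fold changes of -0.13 in TAC against sham hearts and 0.21 in TAC+PUE against TAC hearts did not pass, though Hsp90ab1 was called lower in TAC hearts with TPM without rRNA-like and mitochondrial transcripts.

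HSP40 proteins stimulate the ATPase of HSP70, and Bag3 links HSP70 to Hspb8. Dnaja1 measured 9.50, 9.08 and 6.14 FPKM in TAC+PUE hearts, 3.04, 4.37 and 3.57 FPKM in TAC hearts and 10.6, 9.77 and 11.01 FPKM in sham hearts. It was the member with the largest fall in the cytosol, at -1.31 ± 0.13 (adjusted p = 5.66e-05) in TAC against sham hearts, and differed by 0.98 ± 0.18 (adjusted p = 0.00426) in TAC+PUE against TAC hearts. Dnajb4 measured 8.25, 8.62 and 5.33 FPKM in TAC+PUE hearts, 3.31, 4.03 and 4.04 FPKM in TAC hearts and 8.60, 6.50 and 13.1 FPKM in sham hearts, with a wide spread among sham hearts and no overlap between TAC hearts and either other group. Its fold changes were -1.07 ± 0.20 (adjusted p = 0.00114) in TAC against sham hearts and 0.79 ± 0.18 (adjusted p = 0.00813) in TAC+PUE against TAC hearts. Bag3 measured 96.8, 92.4 and 94.1 FPKM in TAC+PUE hearts, 55.3, 80.1 and 78.04 FPKM in TAC hearts and 90.4, 96 and 90.5 FPKM in sham hearts, and TAC replicate 1 was the lowest heart. Its fold change in TAC against sham hearts was -0.39 ± 0.15 (adjusted p = 0.0468), near the threshold. It turned to 0.036 with TPM, and the call was lost without sham replicate 1, 2 or 3, with median-ratio scaling and without the filter on low values.

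The mitochondrial chaperones fold proteins of the matrix. Hspd1 (Hsp60), the mitochondrial chaperonin, measured 117, 95.6 and 99.9 FPKM in TAC+PUE hearts, 61.1, 77.9 and 78.5 FPKM in TAC hearts and 136, 138 and 137 FPKM in sham hearts. The 3 groups did not overlap, and fold changes were -0.92 ± 0.13 (adjusted p = 0.000251) in TAC against sham hearts and 0.52 ± 0.17 (adjusted p = 0.0293) in TAC+PUE against TAC hearts. Hspa9 (mortalin), the mitochondrial HSP70, measured 143, 118 and 127 FPKM in TAC+PUE hearts, 87.6, 111 and 108 FPKM in TAC hearts and 153, 156 and 155 FPKM in sham hearts. It passed in TAC against sham hearts, at -0.60 ± 0.13 (adjusted p = 0.00262), while the difference of 0.34 between TAC+PUE and TAC hearts did not. Hspe1 (Hsp10), the lid of the Hspd1 chamber, measured 45.1, 47.8 and 44.5 FPKM in TAC+PUE hearts, 33.2, 39.8 and 41.8 FPKM in TAC hearts and 47.9, 45.6 and 47.6 FPKM in sham hearts. Its fold change of -0.30 ± 0.12 (adjusted p = 0.0578) in TAC against sham hearts did not pass, nor did 0.26 in TAC+PUE against TAC hearts. Hspe1 was called lower in TAC than in sham hearts with the joint fit of 9 libraries, with TPM without rRNA-like and mitochondrial transcripts, and without TAC replicate 1 or TAC replicate 3. The higher call of Hspd1 in TAC+PUE hearts was lost without TAC+PUE replicate 1, TAC+PUE replicate 3 or TAC replicate 1.

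Hspd1 and Hspe1 are divergent neighbours, and their promoters are shown because 1 annotated start of Hspd1 shares a stretch with that of Hspe1. The difference between the genes was not tested. Promoter windows of 300 bases, 250 before and 50 from the start site, came from RefSeq (GRCm38.p6) and matched 31 of the 38 genes. Atf6, Hsf1, Hsp90aa1, Hsp90ab1, Hspa8, Hspa9 and Hspb2 had no window. The window of Hspe1 and that of this Hspd1 start overlap over 285 bases at chr1:55087898-55088182. Another Hspd1 window, from chr1:55088194, lies outside this overlap and holds no heat shock element as searched here. The heat shock element was searched on both strands as 3 units, GAA, TTC and GAA or TTC, GAA and TTC, with NN between neighbouring units, and 0.603% of 32851 windows hold it. It was found in 3 genes, Hspe1, Hspd1 and Hsph1. In the lines below its GAA and TTC units are in capitals, at chr1:55088054-55088081, plus strand, and chr5:149636287-149636305, minus strand.
Hspe1 and Hspd1 shared element: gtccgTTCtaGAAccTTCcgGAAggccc
Hsph1 element: gcagaTTCtgGAAagTTCt
The first holds 4 alternating units, so both forms of the motif overlap in it. The second lies downstream of both annotated start sites of Hsph1 and is in both of its windows. A shorter form with a pair of units, GAANNTTC or TTCNNGAA, is in 15.1% of windows and overlaps every longer match. Among the small heat shock proteins, 5 of 6 had windows, the longer element was in 0 of them and the shorter in those of Hspb1, Hspb3, Hspb6 and Hspb8. The shorter form is not particular to them, being in 10 of the 13 cytosolic genes with windows. The others are Hspa1a, Hspa1b, Hsph1, Dnaja1, Dnajb4 and Bag3. The stretch of Hspb1 at chr5:135887797-135887834, plus strand is shown with the units of its 2 shorter matches in capitals.
Hspb1 upstream: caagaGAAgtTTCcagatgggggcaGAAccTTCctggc
A match describes letters and is not a binding site, and the absence of a match says only that these letters are not in the window.

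The heat shock factors were expressed at low levels. Hsf1, the main activator of the heat shock response, measured 2.89, 3.14 and 3.12 FPKM in TAC+PUE hearts, 2.87, 3.61 and 2.94 FPKM in TAC hearts and 2.20, 2.54 and 2.15 FPKM in sham hearts. TAC hearts lay above sham hearts, by 0.33 ± 0.12 (adjusted p = 0.0389), a call that was lost without sham replicate 1, 2 or 3 and without TAC replicate 2. The call of Hsf1 was also lost with TPM without rRNA-like and mitochondrial transcripts and with the replicate block. Hsf2, which can pair with Hsf1, measured 1.66, 1.08 and 1.47 FPKM in TAC+PUE hearts, 0.368, 0.640 and 0.832 FPKM in TAC hearts and 1.75, 1.49 and 1.87 FPKM in sham hearts. It was lower in TAC hearts, at -0.75 ± 0.13 (adjusted p = 0.000565), and higher in TAC+PUE than in TAC hearts, at 0.58 ± 0.15 (adjusted p = 0.0141), a call lost without TAC+PUE replicate 1 or TAC replicate 1. Every TAC value of Hsf2 was under 1 FPKM, so it met the filter only through the other group in each of these comparisons. Its calls are therefore a description. Hsbp1, a small coiled-coil protein that binds Hsf1 and restrains it, measured 35.96, 35.1 and 32.7 FPKM in TAC+PUE hearts, 13, 16.8 and 18.8 FPKM in TAC hearts and 34.2, 34.2 and 36.1 FPKM in sham hearts. The TAC hearts stood far below the others, at -1.07 ± 0.14 (adjusted p = 0.000153) against sham hearts, with 1.06 ± 0.16 (adjusted p = 0.00328) in TAC+PUE against TAC hearts.

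A noncoding transcript of the same locus, Hsbp1-203, was in the authors' lists of lncRNA transcripts that were lower in TAC than in sham hearts and higher in TAC+PUE than in TAC hearts. It measured 17.1, 21.5 and 17.3 FPKM in TAC+PUE hearts, 1.42, 0.467 and 2.59 FPKM in TAC hearts and 10.5, 16.5 and 14.6 FPKM in sham hearts. Set against the FPKM of the gene in the same heart, this was 47.5 to 61.4% in TAC+PUE hearts, 2.78 to 13.8% in TAC hearts and 30.6 to 48.2% in sham hearts. The transcript had a lower share of the gene's level in every TAC heart than in any heart of the other groups. FPKM of the Hsbp1 gene may include this transcript, so the gene's differences above may lie partly or largely in it. How much of them lies in the coding transcripts was not tested. Since the lists were selected on these libraries, the values are a description without a test.

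In the ER folding group, 4 of 8 genes were lower in TAC than in sham hearts and the same count was higher in TAC+PUE than in TAC hearts, with 0 in the other direction in each (limma, also 0 at an unadjusted p under 0.05). Over all genes 37.7% were lower in the first comparison and 32.9% higher in the second. With TPM, 3 of the 8 were higher in TAC than in sham hearts and 3 lower. Dnajb9 (ERdj4), a cochaperone of BiP and target of the Ern1 branch, measured 13.4, 8.50 and 10.3 FPKM in TAC+PUE hearts, 2.37, 3.69 and 3.54 FPKM in TAC hearts and 16.7, 13.3 and 16.2 FPKM in sham hearts. It changed more than any other of the 38 genes, at -1.97 ± 0.16 (adjusted p = 2.56e-05) in TAC against sham hearts and 1.48 ± 0.19 (adjusted p = 0.00325) in TAC+PUE against TAC hearts, and its TAC values overlapped neither other group. Hsp90b1 (Grp94), the HSP90 of the ER, measured 75.6, 68.7 and 54.3 FPKM in TAC+PUE hearts, 32.8, 35.5 and 38.2 FPKM in TAC hearts and 69.4, 69.3 and 72.1 FPKM in sham hearts. Its fold changes were -0.97 ± 0.12 (adjusted p = 9.57e-05) in TAC against sham hearts and 0.87 ± 0.17 (adjusted p = 0.00426) in TAC+PUE against TAC hearts. Canx (calnexin), a membrane lectin that retains unfolded glycoproteins, measured 69.9, 56.6 and 59.8 FPKM in TAC+PUE hearts, 37.02, 39.5 and 43.7 FPKM in TAC hearts and 78.5, 74.5 and 77.1 FPKM in sham hearts. The 3 groups did not overlap, with -0.92 ± 0.12 (adjusted p = 0.000131) in TAC against sham hearts and 0.62 ± 0.15 (adjusted p = 0.0107) in TAC+PUE against TAC hearts.

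Pdia3 (ERp57), the disulfide isomerase that works with calnexin and calreticulin, measured 54.6, 47.2 and 39.03 FPKM in TAC+PUE hearts, 21.9, 27.98 and 31.4 FPKM in TAC hearts and 43.3, 42.1 and 42.7 FPKM in sham hearts. It differed by -0.65 ± 0.14 (adjusted p = 0.00244) in TAC against sham hearts and by 0.77 ± 0.18 (adjusted p = 0.00872) in TAC+PUE against TAC hearts. Calr (calreticulin), the soluble partner of calnexin, measured 93.9, 94.04 and 80.03 FPKM in TAC+PUE hearts, 74.2, 72.4 and 84.3 FPKM in TAC hearts and 81.1, 80.02 and 81.1 FPKM in sham hearts, and the groups overlapped. The disulfide isomerases Pdia4 and Pdia6 measured 17.98 to 22.4 FPKM and 15.5 to 22.3 FPKM in TAC+PUE hearts, 15.6 to 17.5 FPKM and 16.8 to 18.9 FPKM in TAC hearts and 16.3 to 18.2 FPKM and 16.96 to 17.96 FPKM in sham hearts. Calr, Pdia4 and Pdia6 had fold changes of -0.07 to 0.05 in TAC against sham hearts and of 0.12 to 0.29 in TAC+PUE against TAC hearts, and did not pass. With TPM all 3 were called higher in TAC than in sham hearts, at 0.35, 0.38 and 0.46.

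Hspa5 (BiP), the HSP70 of the ER and its main stress marker, measured 77.9, 64.7 and 26.3 FPKM in TAC+PUE hearts, 41.5, 46.3 and 37.96 FPKM in TAC hearts and 30.8, 73.3 and 71.7 FPKM in sham hearts. TAC+PUE replicate 3 and sham replicate 1 lay below every TAC heart, while the other hearts of their groups lay above every TAC heart. The fold change was -0.38 ± 0.28 (adjusted p = 0.256) in TAC against sham hearts and 0.29 ± 0.32 (adjusted p = 0.503) in TAC+PUE against TAC hearts. Without sham replicate 1 it was -0.78 in TAC against sham hearts (adjusted p = 0.00197), and without TAC+PUE replicate 3 it was 0.75 in TAC+PUE against TAC hearts (adjusted p = 0.0161). Over all alternatives the adjusted p ran from 0.00197 to 0.904 for the first and from 0.0161 to 0.979 for the second.

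The ER stress element, searched on both strands as CCAAT and CCACG with 9 free bases between them, is shown because it is shared by most of the ER folding genes. It is in 0.119% of 32851 windows, and in the windows of 5 of the 8 ER folding genes, Hspa5, Hsp90b1, Canx, Calr and Pdia6. In the cytosolic, mitochondrial and heat shock factor genes 0 windows hold it. In the lines below each site reads from CCAAT to CCACG with those letters in capitals, at chr2:34772020-34772048, plus strand, chr8:84847070-84847098, plus strand, chr10:86705633-86705661, minus strand, chr10:86705528-86705556, plus strand, chr11:50325795-50325823, minus strand and chr12:17266486-17266514, plus strand.
Hspa5 site 1: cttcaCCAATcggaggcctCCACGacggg
Calr site 1: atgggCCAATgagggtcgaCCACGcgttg
Hsp90b1 site 1: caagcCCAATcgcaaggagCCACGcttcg
Hsp90b1 site 2: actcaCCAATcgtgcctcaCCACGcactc
Canx site 1: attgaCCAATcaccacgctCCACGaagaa
Pdia6 site 1: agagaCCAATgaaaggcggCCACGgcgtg
Hsp90b1 and Canx, with this element, passed in both comparisons, while Hspa5, Calr and Pdia6, also with it, passed in neither with FPKM. Calr and Pdia6 were called higher in TAC than in sham hearts with TPM. Dnajb9 and Pdia3, which passed in both comparisons with FPKM, have no full match in their windows. The upstream stretch of Dnajb9 at chr12:44210069-44210181, minus strand holds the last part of the element, CCACG, at both ends, shown in capitals. That part alone is in 32.8% of windows and is contained in every full match.
Dnajb9 upstream: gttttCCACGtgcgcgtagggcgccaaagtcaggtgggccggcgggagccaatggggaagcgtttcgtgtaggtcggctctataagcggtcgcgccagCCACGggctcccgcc
The UPR element TGACGTGG, in 0.676% of windows, was in 0 of the members' windows. The amino acid response element, searched as TGATGCAAT, TGATGCAAC or TTGCATCA and in 0.895% of windows, was in that of Herpud1.

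Herpud1 and Sel1l belong to the complex that withdraws unfolded proteins from the ER for degradation. Herpud1 measured 33.4, 45.3 and 56.4 FPKM in TAC+PUE hearts, 33.2, 39.4 and 39.99 FPKM in TAC hearts and 49.6, 56.5 and 48.8 FPKM in sham hearts. It was lower in TAC than in sham hearts, at -0.45 ± 0.13 (adjusted p = 0.01), and the TAC+PUE hearts spread over both ranges. Sel1l measured 10.8, 10.5 and 10.0 FPKM in TAC+PUE hearts, 4.92, 6.23 and 7.05 FPKM in TAC hearts and 6.91, 7.84 and 11.2 FPKM in sham hearts. Its TAC and sham values overlapped and did not pass, though Sel1l was called lower in TAC hearts with TPM without rRNA-like and mitochondrial transcripts, the joint fit, the replicate block, or without sham replicate 1 or TAC replicate 3. It differed by 0.70 ± 0.16 (adjusted p = 0.00686) in TAC+PUE against TAC hearts, which did not overlap.

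The ER sensors and factors follow by branch. Atf6, a sensor that becomes a transcription factor once cleaved, measured 19.6, 15.6 and 16.1 FPKM in TAC+PUE hearts, 6.91, 10.7 and 10.7 FPKM in TAC hearts and 18.2, 17.2 and 18.2 FPKM in sham hearts. Its fold changes were -0.88 ± 0.16 (adjusted p = 0.000913) in TAC against sham hearts and 0.81 ± 0.19 (adjusted p = 0.00785) in TAC+PUE against TAC hearts. Ddit3 (CHOP), a factor induced by Atf4 and tied to cell death, measured 11.5, 12.9 and 14.97 FPKM in TAC+PUE hearts, 8.53, 9.72 and 8.26 FPKM in TAC hearts and 6.30, 7.56 and 6.46 FPKM in sham hearts. The 3 groups did not overlap, with the sham hearts lowest and the TAC+PUE hearts highest. Fold changes of Ddit3 were 0.34 ± 0.12 (adjusted p = 0.0338) in TAC against sham hearts and 0.52 ± 0.15 (adjusted p = 0.0213) in TAC+PUE against TAC hearts. In TAC against sham hearts, the call of Ddit3 was lost without sham replicate 1, sham replicate 3 or TAC replicate 2. That call was also lost with TPM without rRNA-like and mitochondrial transcripts and with the replicate block. In TAC+PUE against TAC hearts, the call of Ddit3 was lost without TAC+PUE replicate 3, TAC replicate 1 or TAC replicate 3, and with TPM or median-ratio scaling. Atf4, the effector of the PERK branch, measured 42.3, 49.6 and 42.2 FPKM in TAC+PUE hearts, 30.2, 41.8 and 40.01 FPKM in TAC hearts and 28.2, 30.2 and 29.3 FPKM in sham hearts, and its fold change of 0.33 ± 0.14 (adjusted p = 0.0611) in TAC against sham hearts did not pass, though it was called higher with median-ratio scaling, with TPM and without TAC replicate 1. Xbp1, the target spliced by Ern1, measured 17.2, 17.8 and 15.3 FPKM in TAC+PUE hearts, 10.2, 14.8 and 13.98 FPKM in TAC hearts and 13.6, 14.7 and 13.3 FPKM in sham hearts, and Ern1 measured 3.26, 4.03 and 4.04 FPKM in TAC+PUE hearts, 2.43, 2.51 and 3.55 FPKM in TAC hearts and 3.56, 3.51 and 3.31 FPKM in sham hearts. Xbp1 and Ern1 differed by -0.10 and -0.23 in TAC against sham hearts and by 0.36 and 0.33 in TAC+PUE against TAC hearts, without passing. Ern1 was called lower in TAC than in sham hearts with TPM without rRNA-like and mitochondrial transcripts and without TAC replicate 3, and higher in TAC+PUE than in TAC hearts without TAC replicate 3. FPKM of the Xbp1 gene do not separate its spliced from its unspliced form.

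Setting the cytosolic genes beside the ER genes, 6 of 17 cytosolic genes were higher in TAC than in sham hearts and 7 lower, and 1 of 15 ER genes was higher and 6 lower. The lower shares, 41.2% of the cytosolic and 40.0% of the ER genes, were near the 37.7% of all genes. The higher shares were 35.3% and 6.67%, beside 25.3% of all genes. With TPM, 8 cytosolic genes were higher and 4 lower, and 5 ER genes were higher and 4 lower. Median fold changes were -0.13 for the cytosolic and -0.38 for the ER genes, beside -0.12 for all genes. Between TAC+PUE and TAC hearts, 6 cytosolic genes were higher and 2 lower, and 7 ER genes were higher and 0 lower (limma, also 0 at an unadjusted p under 0.05). The higher shares were 35.3% of the cytosolic and 46.7% of the ER genes, beside 32.9% of all genes. The lower share of the cytosolic genes was 11.8%, beside 5.45% of all genes. Medians were 0.37 and 0.36, beside 0.24 for all genes. The mean log2(FPKM + 1) of the ER genes less that of the cytosolic genes within a heart was -0.77 to -0.42 in TAC+PUE hearts, -0.90 to -0.65 in TAC hearts and -0.47 to -0.38 in sham hearts. The 6 small heat shock proteins among the members stood apart within the cytosolic set. Their mean less that of the other 11 cytosolic genes was 2.19 to 2.46 in TAC+PUE hearts, 2.94 to 3.28 in TAC hearts and 1.67 to 1.94 in sham hearts, with no overlap between groups. Cryab, a further small heat shock protein described below, is not among these 6. The mean of the ER folding genes less that of the other cytosolic genes was 0.54 to 1.05 in TAC+PUE hearts, 0.67 to 0.84 in TAC hearts and 0.80 to 0.92 in sham hearts, and these overlapped. Such a difference is taken within a heart, so library scaling enters it only through the pseudocount.

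**Figure D3:**
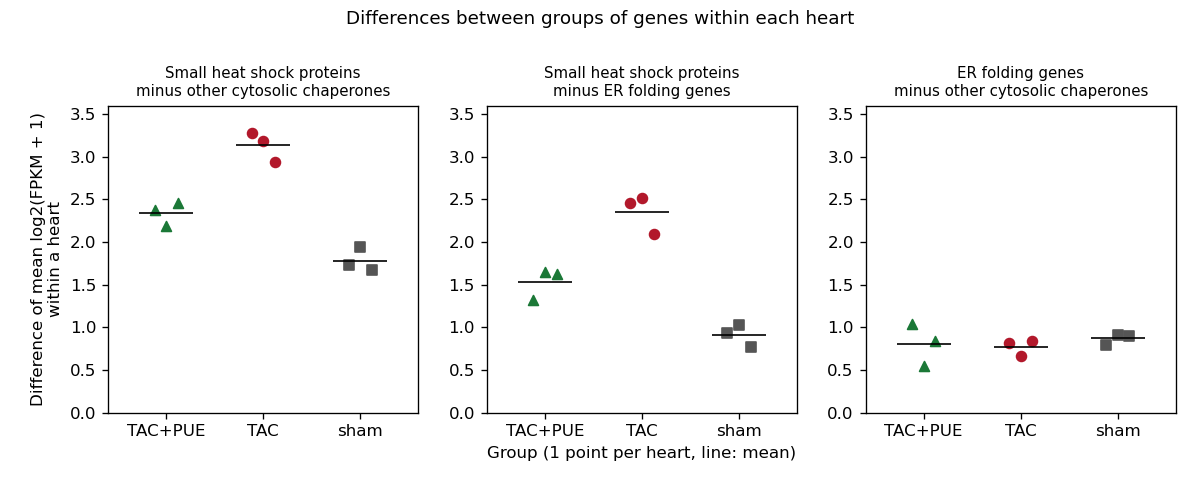
Differences between mean log2(FPKM + 1) of gene groups within each heart for TAC+PUE, TAC and sham hearts, 1 point per heart with the group mean as a line. Small heat shock proteins less other cytosolic chaperones are highest in TAC hearts, at 2.94 to 3.28, and lowest in sham hearts, at 1.67 to 1.94, while the ER folding genes keep overlapping distances from the other cytosolic chaperones.

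The third comparison set TAC+PUE hearts against sham hearts. Here 6 of the 38 genes were higher, 1 was lower and 31 did not pass, where 14.6% of 11931 genes tested were higher and 2.7% lower. The members' median was 0.11, as for all genes. The higher genes were 4 small heat shock proteins, Hspb6 at 0.86 ± 0.12 (adjusted p = 0.0072), Hspb7 at 0.65 ± 0.10 (adjusted p = 0.00965), Hspb8 at 0.50 ± 0.10 (adjusted p = 0.0184) and Hspb2 at 0.48 ± 0.12 (adjusted p = 0.036), and the stress factors Ddit3 at 0.86 ± 0.12 (adjusted p = 0.00614) and Atf4 at 0.59 ± 0.09 (adjusted p = 0.00882). Hspb1, at 0.65 ± 0.20 (adjusted p = 0.0625), and Hspb3, at 0.37 ± 0.13 (adjusted p = 0.0963), did not pass. Hspd1 was lower, at -0.40 ± 0.10 (adjusted p = 0.0354). With median-ratio scaling 5 were higher and 4 lower, with TPM 11 and 0 (limma, 0 lower at an unadjusted p under 0.05), and with TPM without rRNA-like and mitochondrial transcripts 5 and 3, where the median of all genes was -0.01, 0.24 and -0.04. Without sham replicate 1 or sham replicate 3, the 6 higher genes fell to 2, Hspb6 and Ddit3, and the call of Hspd1 was lost without TAC+PUE replicate 2 or 3 and without sham replicate 1, 2 or 3.

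The stress-inducible HSP70 genes Hspa1a and Hspa1b were low in 8 of the 9 hearts. Hspa1a measured 3.53, 9.18 and 2.18 FPKM in TAC+PUE hearts, 2.78, 3.16 and 2.21 FPKM in TAC hearts and 3.17, 3.73 and 3.26 FPKM in sham hearts, and Hspa1b measured 2.92, 9.76 and 2.42 FPKM in TAC+PUE hearts, 3.20, 4.66 and 3.05 FPKM in TAC hearts and 3.17, 3.78 and 3.14 FPKM in sham hearts. TAC+PUE replicate 2 was the highest heart for both, and also for their HSP40 partner Dnajb1, which measured 6.71, 12.4 and 7.16 FPKM in TAC+PUE hearts, 5.07, 6.67 and 7.35 FPKM in TAC hearts and 6.44, 7.07 and 6.08 FPKM in sham hearts. None of the 3 genes passed a comparison with FPKM. With TPM, Hspa1b and Dnajb1 were called higher in TAC than in sham hearts. Hspa1a was called lower there with TPM without rRNA-like and mitochondrial transcripts, and higher in TAC+PUE than in TAC hearts without TAC+PUE replicate 3. TAC+PUE replicate 2 also had the highest Myl7, at 708 FPKM. The promoter windows of Hspa1a and Hspa1b differ at 4 of 300 bases and the genes are near-identical, so reads may be split between them and their FPKM are uncertain. FPKM of Hspd1, Hspe1, Hspa9 and Dnaja1, which have annotated pseudogenes, are uncertain for the same reason.

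**Figure D4:**
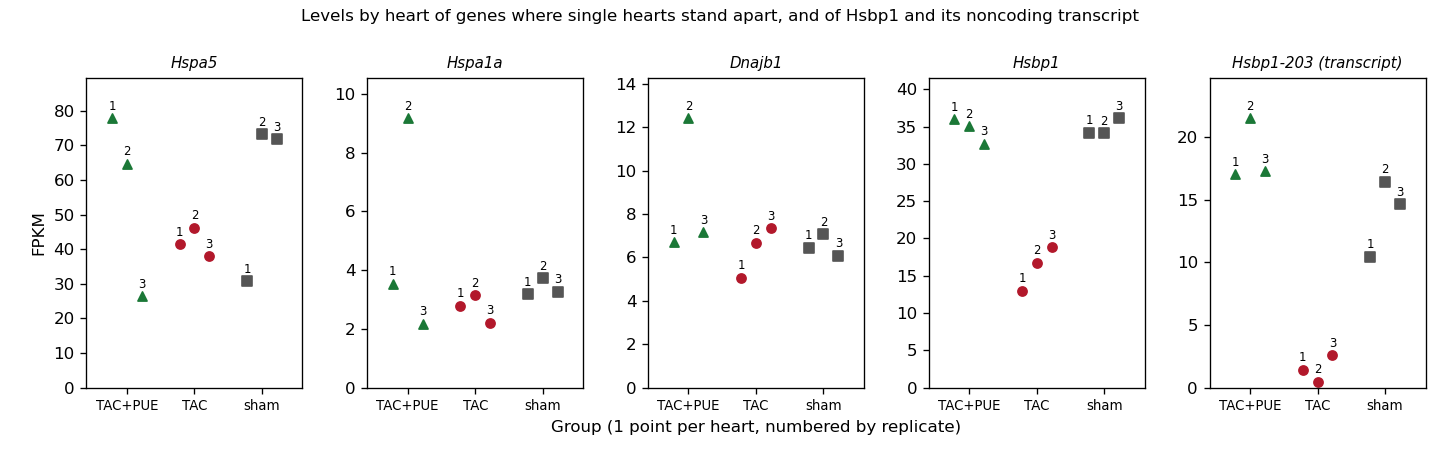
FPKM by heart, numbered by replicate, of Hspa5, Hspa1a and Dnajb1, where single hearts stand apart, and of Hsbp1 with its noncoding transcript Hsbp1-203, for TAC+PUE, TAC and sham hearts. Hspa5 is low in TAC+PUE replicate 3 at 26.3 FPKM and in sham replicate 1 at 30.8 FPKM, and Hspa1a is high in TAC+PUE replicate 2 at 9.18 FPKM.

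Other genes of the same pathways were counted from lists, to be read beside all genes tested, of which 25.3% were higher and 37.7% lower in TAC against sham hearts, and 32.9% higher and 5.45% lower in TAC+PUE against TAC hearts. Of 13 subunits of the chaperonin TRiC and prefoldin, which fold actin and tubulin, 9 were lower in TAC than in sham hearts and 0 higher, and 8 were higher in TAC+PUE than in TAC hearts and 0 lower (limma, 0 in those directions also at an unadjusted p under 0.05). In TAC against sham hearts, Vbp1, a prefoldin subunit, differed by -1.56 ± 0.22 and the chaperonin subunits Cct8 and Tcp1 by -0.88 ± 0.14 and -0.76 ± 0.13. In TAC+PUE against TAC hearts the same genes differed by 1.29 ± 0.23, 0.85 ± 0.18 and 0.73 ± 0.16. In TAC+PUE against sham hearts 0 of the 13 passed, 0 also at an unadjusted p under 0.05. Of all genes tested there, 14.6% were higher and 2.7% lower.

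Among 31 other cytosolic chaperones and cochaperones tested, 8 were higher in TAC than in sham hearts and 11 lower, which is 25.8% and 35.5%, near the shares of all genes. In TAC+PUE against TAC hearts 8 were higher, which is 25.8% and below the 32.9% of all genes, and 2 were lower. Hspbp1, which strips nucleotide from HSP70, differed by 1.48 ± 0.14 in TAC against sham hearts and -0.87 ± 0.20 in TAC+PUE against TAC hearts, and Dnaja2, an HSP40, by -1.38 ± 0.16 and 0.95 ± 0.19. Cryab (αB-crystallin), the neighbour of Hspb2 and itself a small heat shock protein, did not pass in TAC against sham hearts, at 0.34 ± 0.16 (adjusted p = 0.0802), or in TAC+PUE against TAC hearts, at 0.38 ± 0.20 (adjusted p = 0.152). It was higher in TAC+PUE than in sham hearts, at 0.72 ± 0.17, a call lost without TAC+PUE replicate 2, sham replicate 1 or sham replicate 3 and with median-ratio scaling. Of 11 mitochondrial chaperones and proteases, 4 were higher in TAC than in sham hearts and 2 lower, and 2 were higher in TAC+PUE than in TAC hearts and 2 lower. The protease Yme1l1 differed by -1.51 ± 0.17 in TAC against sham hearts and 1.16 ± 0.21 in TAC+PUE against TAC hearts, and Atf5, a factor of the mitochondrial stress response, by 1.28 ± 0.12 and -0.73 ± 0.21. The call of Atf5 in TAC+PUE hearts was lost without TAC+PUE replicate 1, TAC+PUE replicate 3 or TAC replicate 1.

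Of 18 other ER folding genes, 8 were higher in TAC than in sham hearts and 8 lower, and 8 were higher in TAC+PUE than in TAC hearts and 1 lower. The higher and the lower share in TAC hearts were each 44.4%. Serpinh1 (Hsp47), the collagen chaperone, was the lower one, and differed by 1.67 ± 0.29 in TAC against sham hearts and -1.03 ± 0.25 in TAC+PUE against TAC hearts, a call lost without TAC replicate 1. The thioredoxin-like Tmx1 went the other way, at -1.23 ± 0.12 and 0.82 ± 0.19. Of 17 ER degradation and translocation genes, 3 were higher in TAC than in sham hearts and 6 lower, and 6 were higher in TAC+PUE than in TAC hearts and 0 lower (limma, 1 lower at an unadjusted p under 0.05). The lower share in TAC hearts, 35.3%, and the higher share in TAC+PUE hearts, 35.3%, were near those of all genes. Erlec1, a lectin of ER degradation, differed by -1.12 ± 0.15 in TAC against sham hearts and 0.80 ± 0.17 in TAC+PUE against TAC hearts. Of 19 sensors and stress targets, 7 were higher in TAC than in sham hearts and 3 lower, and of 20 tested, 5 were higher in TAC+PUE than in TAC hearts and 0 lower (limma, 1 lower at an unadjusted p under 0.05). The 7 higher were 36.8% of the list in TAC hearts, and the 5 higher were 25.0% in TAC+PUE hearts, where 32.9% of all genes were higher. Nfe2l2 (Nrf2), a target of PERK, differed by -1.19 ± 0.14 in TAC against sham hearts and 1.05 ± 0.16 in TAC+PUE against TAC hearts, and the ER-bound factor Creb3l1 by 1.37 ± 0.13 in TAC against sham hearts.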

How the data were processed

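RNA was measured by paired-end sequencing of stranded libraries from 9 mouse hearts, grouped by GEO's labels, 3 per group. The authors aligned reads with Hisat2 and quantified them with StringTie and Ballgown, with mm9 as the build in the submitters' processing notes. Values were used as the authors deposited them, in FPKM. The methods name TPM, so TPM scaling was an alternative. Depth is unknown: at most 3 of 1789 low genes shared 1 ratio between libraries, so counts were not recovered. The sources used here do not say whether counting used strand.

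Genes that reached 1 FPKM in 3 or more of the 6 libraries compared were tested with limma 3.58.1 (R 4.3.3; eBayes with trend, two-sided, Benjamini-Hochberg) on log2(FPKM + 1), tested on simulated data. All 38 members passed the filter in each comparison, Hsf2 only through sham or TAC+PUE hearts where these were compared with TAC hearts. The table of TAC+PUE against sham was joined from the 2 deposited tables, whose TAC values were identical. The authors' lncRNA lists gave transcript values, and transcript names came from the shortened supplement, which names only part of the listed transcripts. Sequences and motifs were read with Python 3.11.15 and pandas 2.3.3.

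The members and lists were chosen with earlier results of these data known. Every member is accounted for, with values of those that passed. Of each other list, up to 4 genes qualified: the largest changes past the test with no overlap and a mean of at least 5 FPKM in the higher group. Alternatives were pseudocounts of 0.1 and 5, no filter, a filter at 10 FPKM, median-ratio and TPM scaling, TPM without rRNA-like and mitochondrial transcripts, no trend, fitting all 9 libraries jointly, blocking on the replicate number, leaving out each library, and leaving out libraries over 100 FPKM of Myl7.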

Additional observations from a re-analysis of the deposited data

How the results depend on the processing

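The members higher in TAC than in sham hearts numbered 8, and 14 with TPM scaling, with 5 to 9 when single hearts were left out. Those lower numbered 17, and 11 with TPM, with 16 to 20 when single hearts were left out. The members higher in TAC+PUE than in TAC hearts numbered 16, against 9 with the filter at 10 FPKM and 10 with median-ratio scaling, with 11 to 16 when single hearts were left out. The 2 lower were 1 with the filter at 10 FPKM, with 0 to 2 when single hearts were left out. Leaving out the libraries of high Myl7 sets 1 TAC+PUE heart, assumed to vary like the TAC hearts, against 2 TAC hearts. That is too few to judge these calls, and the part of Myl7 in them was not tested. The filter at 10 FPKM tests fewer genes. The members higher in TAC+PUE than in sham hearts numbered 6, and 11 with TPM, with 2 to 7 when single hearts were left out. The 1 lower became 4 with median-ratio scaling, 3 with TPM without rRNA-like and mitochondrial transcripts, and 0 with TPM or the joint fit (limma, 0 and 3 at an unadjusted p under 0.05), with 0 to 4 when single hearts were left out. With TPM the sign turned for 10 members in TAC against sham hearts, Hspa1a (0.0794), Bag3 (0.036), Hspa5 (0.0435), Hsp90ab1, Dnajb1, Hspe1, Calr, Pdia4, Xbp1 and Ern1, and with median-ratio scaling for 5 there and 11 in TAC+PUE against TAC hearts. Bag3 alone of these had passed. The sign also turned for Hspa5 in TAC+PUE against TAC hearts with median-ratio scaling, to -0.0628, and without TAC+PUE replicate 1, to -0.0129, where leaving out single hearts gave -0.0129 to 0.752. The cause of these shifts was not tested. Over all genes the higher share of calls moved with scaling from 40.1% to 50.2% (median-ratio) and 65.3% (TPM) in TAC against sham hearts, from 85.8% to 45.7% and 59.3% in TAC+PUE against TAC hearts, and from 84.4% to 54.3% and 95.9% in TAC+PUE against sham hearts. The replicate numbers are shared between groups by number only. Same-numbered hearts had correlations of deviations from group means of -0.02 to 0.06 between TAC and sham hearts, -0.26 to 0.19 between TAC+PUE and TAC hearts and 0.04 to 0.30 between TAC+PUE and sham hearts, and 1, 2 and 5 of 6 hearts correlated best with their own number. With the replicate block, 6 members were higher in TAC than in sham hearts and 19 lower, 15 and 2 for TAC+PUE against TAC hearts, and 9 and 3 for TAC+PUE against sham hearts. Depth is unknown, so no counting error is given, and 3 hearts a group limit every test.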

Other observations

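Noncoding transcripts of 2 further members were in the authors' list of lncRNA transcripts that were higher in TAC than in sham hearts, and TAC+PUE values are not in that list. Hspb6-202 measured 10.3, 14.1 and 12.8 FPKM in TAC hearts, against 5.33, 6.88 and 7.61 FPKM in sham hearts. Set against the Hspb6 gene in the same heart this was 5.33 to 9.55% in TAC hearts and 7.06 to 10.2% in sham hearts, and these ranges overlap. Hspa4-203 measured 6.36, 4.65 and 2.03 FPKM in TAC hearts, against 0.764, 1.38 and 1.57 FPKM in sham hearts. Its share of the Hspa4 gene was 8.37 to 31.9% in TAC hearts and 2.13 to 4.35% in sham hearts, while the gene itself was lower in TAC hearts. The list was selected on these libraries, so the values are a description with no test. Members' transcripts could be found only where the supplement names them. Names were found for 399 of 408 transcripts higher and 43 of 936 lower in TAC than in sham hearts. In TAC+PUE against TAC hearts they were found for 72 of 644 higher and 157 of 162 lower. Further members may therefore have listed transcripts.

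In TAC+PUE against sham hearts, 6 of 20 tested sensors and stress targets of the unfolded protein response outside the 38 genes were higher and 0 lower (limma, 9 and 1 at an unadjusted p under 0.05). Creb3l1 and Creb3l2, ER-bound factors of the same family as Atf6, differed by 0.86 ± 0.20 and 0.67 ± 0.13, and Creb3 by 0.41 ± 0.10. Each of these calls was lost when sham replicate 1 or sham replicate 3 was left out. Of 18 other ER folding genes, 2 were higher and 0 lower (limma, 1 lower at an unadjusted p under 0.05). These were Ppib, a prolyl isomerase of collagen folding, and Fkbp2, by 0.51 ± 0.09 and 0.36 ± 0.09. Of 17 ER degradation and translocation genes, 4 were higher and 0 lower (limma, 1 lower at an unadjusted p under 0.05). Among them, the translocon subunits Sec61b and Sec61a1 differed by 0.59 ± 0.11 and 0.42 ± 0.09. The higher shares were 11.1% and 23.5%, beside 14.6% of all genes. The calls of Ppib, Fkbp2, Sec61b and Sec61a1 were lost under the same omissions. Those of Creb3, Fkbp2 and Sec61a1 were also lost with median-ratio scaling and with TPM without rRNA-like and mitochondrial transcripts.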
